A study of Mus musculus with 2 samples.

Results

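The 35 genes described here encode the folding and quality control machinery of the endoplasmic reticulum (ER) and the sensors and transcription factors of the unfolded protein response. They were matched by symbol, and all 35 were present among the 32285 genes of the count tables. The data were 2 single-cell RNA-seq libraries of intestinal epithelial cells, 1 per genotype. Animals of the transgenic genotype, MG53-TG, overexpress MG53 (gene Trim72) in the whole body, and the wild type (WT) animals were littermates. Both groups drank 2.5% dextran sulfate sodium (DSS), which damages the gut lining, and cells were taken on day 7. The sources used here name neither the promoter of the transgene nor the age or the intestinal segment. The study describes several mice in each group of this experiment, but the cells carry no label of the animal. Cells were dissociated from crypts and sorted as viable (7-AAD negative) and EpCAM positive. With 1 library per genotype there were no replicates, so no test between genotypes was made, and every interval given covers counting error only.

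Proteins that enter the secretory pathway are threaded through the Sec61 translocon into the ER, where chaperones of the Hsp70 and Hsp90 families, protein disulfide isomerases and the lectins calnexin and calreticulin fold them. Misfolded proteins are pulled back into the cytosol and degraded. When unfolded proteins accumulate, the membrane sensors IRE1 (Ern1 and, in mucosal epithelia, Ern2), ATF6 and PERK (Eif2ak3) signal to the nucleus and to the ribosome. IRE1 splices the mRNA of Xbp1, and the resulting factor, together with cleaved ATF6, switches on chaperone genes. The gut is a classic tissue for this response, since goblet cells fold very large mucins and Paneth cells pack antimicrobial granules. Reads from the 3′ end of a transcript count it but do not separate spliced from unspliced Xbp1.

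After a common filter, 6963 WT and 4941 MG53-TG cells were kept, in 24 clusters named from marker lists. The secretory class held goblet-like, Paneth-like, enteroendocrine-like, tuft-like and secretory progenitor-like cells, in all 2652 WT and 2688 MG53-TG cells. The absorptive class held enterocyte-like and absorptive progenitor-like cells (2452 and 1425), and the stem-like class 1015 and 493 cells. MG53-TG cells were deeper in all 3 classes, with medians of 17420 against 14049 UMIs (unique molecular identifiers, 1 per captured molecule) in the secretory class. Of the kept barcodes, 8 occurred in both libraries. Trim72 followed the labels, at 0.497 to 0.641 CPM (the usual depth-scaled unit, here a gene's share of all UMIs of a cell group) in the 3 WT classes and 12.5 to 74.9 CPM in the 3 MG53-TG classes. The study describes the profiled cells as CD45 negative, a gate that the sorting protocol in the labels does not name. Immune cells were present all the same and were kept out of the 3 classes. They were a T cell-like cluster (575 WT and 230 MG53-TG cells), a shallow unnamed cluster also led by T cell genes (223 and 87 cells), a B and plasma cell-like cluster (20 and 12 cells) and myeloid-like clusters (26 and 6 cells).

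Across the 8 epithelial cell types, the ER genes were highest in the goblet lineage. Together they took 1.02% of the UMIs of WT secretory progenitor-like cells and 0.891% of goblet-like cells, against 0.412% in enterocyte-like and 0.42% in stem-like cells. In MG53-TG the same shares were 1.13%, 1.04%, 0.502% and 0.432%. Secretory progenitor-like cells held the highest level of the 8 types for 15 of the 35 genes in both libraries and goblet-like cells for 7. The share of all genes with their highest level in these types was not computed, so these counts are description only. The other 13 genes peaked elsewhere or changed place between libraries, among them Atf6, Ern1 and Dnajb9 in enteroendocrine-like, P4hb in enterocyte-like and Canx in absorptive progenitor-like cells. Because these are 3′ counts, levels are compared between cell groups for 1 gene at a time and not between genes.

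**Figure D1:**
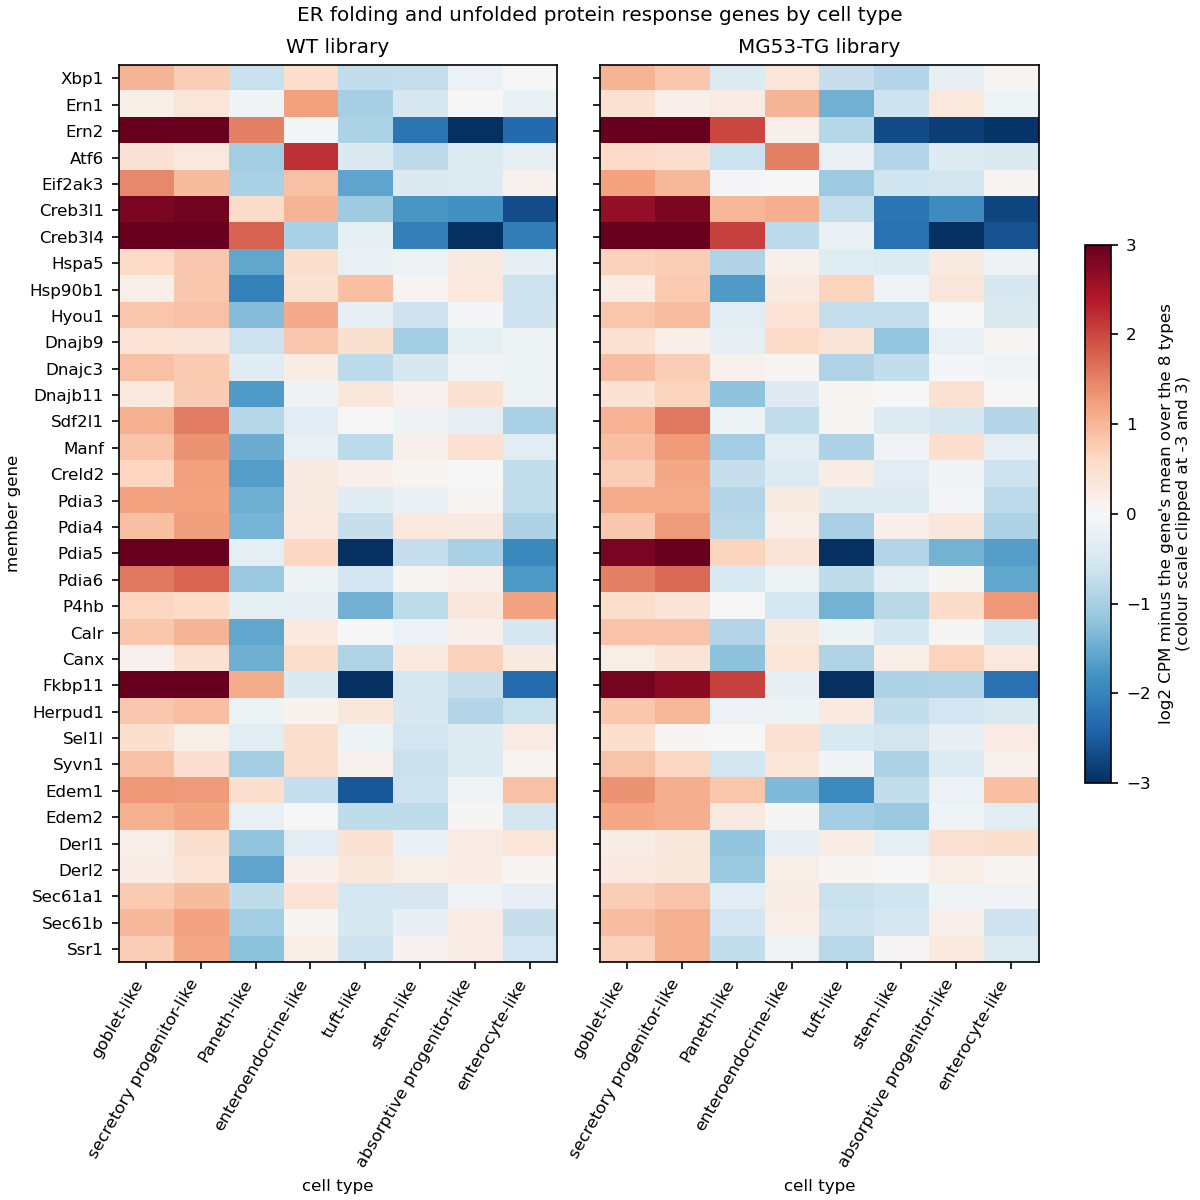
Level of 34 of the 35 genes (rows) in 8 epithelial cell types (columns) of each library, as log2 CPM minus the gene's own mean over the 8 types. Ern2, Creb3l1, Creb3l4, Pdia5 and Fkbp11 are dark red in goblet-like and secretory progenitor-like cells, Atf6 is reddest in enteroendocrine-like cells and P4hb in enterocyte-like cells; Derl3 is left out because it had almost no UMIs in epithelial cells.

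Paneth-like cells had the lowest level of the 8 types for many chaperones, for example Hspa5 at 149.8 CPM in WT against 360.4 in enterocyte-like cells. In these cells 20 genes, led by defensins, took 73% of the WT and 70.8% of the MG53-TG UMIs, which lowers the CPM of every other gene. The levels given below for Paneth-like cells carry this limit.

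Within each library, secretory and absorptive cells were then compared for each gene with at least 100 UMIs in both classes together. Derl3 fell short of this, so 34 of the 35 genes were compared. The median log2 ratio of secretory over absorptive was 0.58 in WT and 0.85 in MG53-TG, beside medians over all genes of -0.12 and 0.10. At least 2-fold higher in the secretory class in both libraries were 9 of the 34 genes, against 14.0% of the 11237 genes compared. At least 2-fold higher in the absorptive class were 0 of the 34, against 13.6% of all genes.

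The 5 largest ratios belonged to Ern2, Creb3l4, Creb3l1, Fkbp11 and Pdia5. Ern2, which encodes the IRE1 form of mucus-producing epithelia, stood at 143 CPM in WT secretory and 1.95 in WT absorptive cells, and at 189.9 and 2.49 CPM in MG53-TG. Its log2 ratio was 6.20 (95% interval 5.87 to 6.55) in WT and 6.25 (5.91 to 6.62) in MG53-TG. The absorptive levels rest on 73 and 68 UMIs and lay below the 2.81 and 6.83 CPM of T cell-like cells. WT barcodes under 100 UMIs, taken as free RNA, had Ern2 at 32.6 CPM from 195 UMIs. Across the alternatives the Ern2 ratio ran from 4.42, with a pseudocount of 5 CPM, to 6.57 in WT and from 4.70 to 7.22 in MG53-TG. Creb3l4 and Creb3l1, transcription factors that are anchored in the ER membrane and released by cleavage, had log2 ratios of 6.31 and 4.37 in WT and 6.02 and 4.69 in MG53-TG. Fkbp11, a prolyl isomerase of secretory cells, had 3.84 and 4.09, and the disulfide isomerase Pdia5 3.76 and 4.10. The other 4 past 2-fold in both libraries were Pdia6, Sdf2l1, Herpud1 and Eif2ak3, at 1.03 to 1.92. Of these, Pdia6 stayed past 2-fold under every alternative, while Sdf2l1 (0.97 in WT), Herpud1 (0.94 in MG53-TG) and Eif2ak3 (0.61 in WT and 0.64 in MG53-TG) fell below it under at least 1. Between these and the 5 large ratios, no gene fell in the gap from 1.92 to 3.76.

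**Figure D2:**
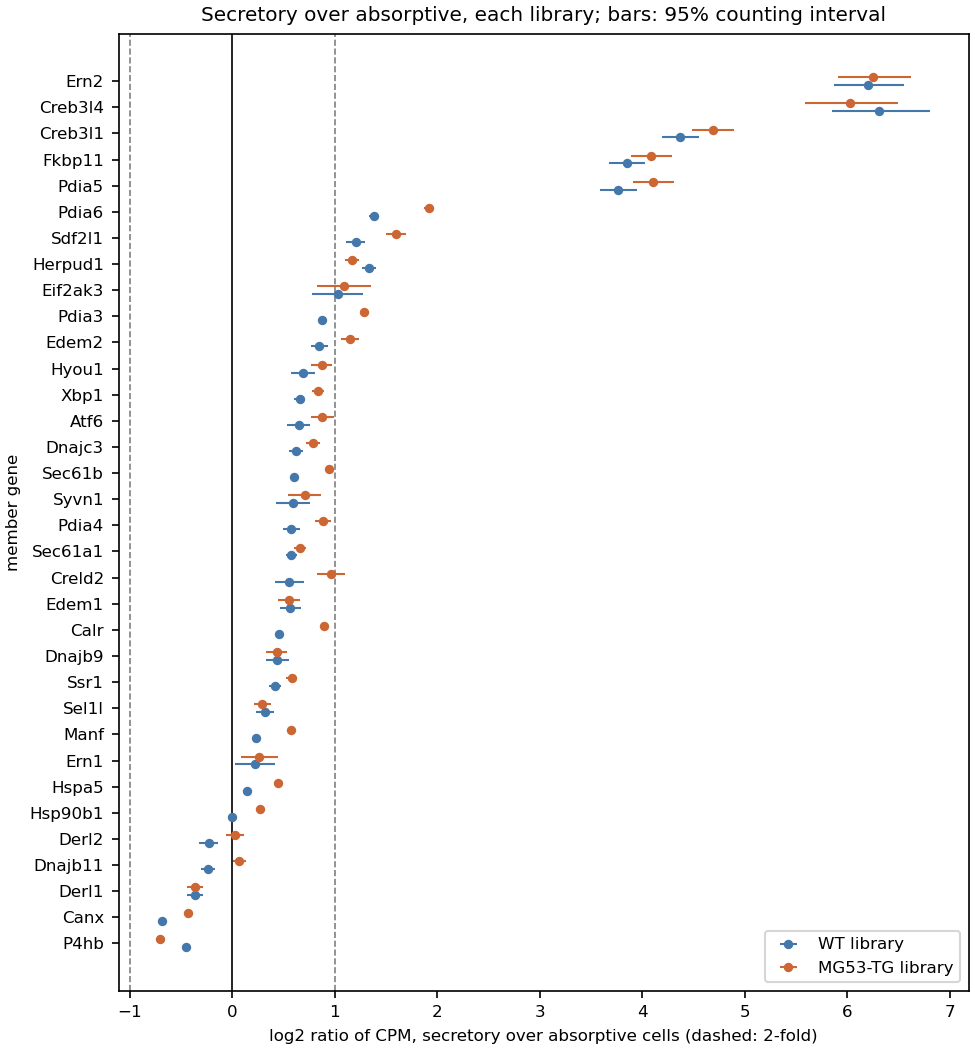
Log2 ratio of CPM in secretory over absorptive cells (horizontal axis) for 34 genes (rows), with the WT library in blue, the MG53-TG library in orange and bars for the 95% counting interval. Creb3l4, Ern2, Creb3l1, Fkbp11 and Pdia5 lie at 3.76 or more in both libraries, the rest at 1.92 or less, and Derl1, Canx and P4hb lie left of 0 in both.

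At the other end, 3 genes were higher in absorptive cells in both libraries, under every alternative, although Derl1 came as near to 0 as -0.0046. P4hb had a secretory over absorptive log2 ratio of -0.45 in WT and -0.71 in MG53-TG, and its highest levels of all types were in enterocyte-like cells, at 921 and 1034 CPM. Its product is a disulfide isomerase and also the small subunit of the microsomal triglyceride transfer protein of lipid-exporting enterocytes. The lectin chaperone Canx had -0.69 and -0.43, and Derl1, a channel component of ER-associated degradation, -0.36 and -0.37.

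The most widely used ER chaperones lay in between. Hspa5 (BiP, the ER Hsp70) was at 511 CPM in secretory and 464 in absorptive cells of WT and at 801 and 589 CPM in MG53-TG, log2 ratios of 0.14 (0.11 to 0.17) and 0.44 (0.42 to 0.47). Hsp90b1 (GRP94, the ER Hsp90) gave 0.00 (-0.03 to 0.03) in WT and 0.27 (0.24 to 0.29) in MG53-TG. Across the alternatives the WT ratio ran from 0.09 to 0.51 for Hspa5 and from -0.11 to 0.44 for Hsp90b1, far beyond their counting intervals, and the MG53-TG ratio from 0.12 to 0.82 and from 0.18 to 0.72. Xbp1 was 0.66 and 0.83 and Ern1 0.22 and 0.26. Leaving the Paneth-like cells out of the secretory class, a choice made after these values were seen, brought the medians over the 34 genes to 0.93 and 0.96.

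The sensors differed from each other in where they were found. Ern2 was at 227 CPM in WT goblet-like, 174 in secretory progenitor-like, 42.2 in Paneth-like, 14.1 in enteroendocrine-like and 7.65 in tuft-like cells, and at 3.23 CPM or less in the other 3 types. In MG53-TG these levels were 246, 193, 74.5, 20.4 and 10.2 CPM, with 2.88 or less in the rest. After thinning every cell to 1354 UMIs, 25.8% of WT and 30.1% of MG53-TG goblet-like cells had an Ern2 UMI, against 0.348% and 0.435% of T cell-like cells, which should lack the gene and serve as a gauge of free RNA. Exact binomial intervals for the goblet-like cells were 23.7% to 28.1% and 28.0% to 32.3%. Enterocyte-like cells were near this background after thinning, with 0.551% in WT and 0 of 948 cells in MG53-TG, where up to 0.388% of cells with an Ern2 UMI at this depth is allowed. Of tuft-like cells, 0 of 231 in WT and 6 of 285 in MG53-TG had a UMI. Of enteroendocrine-like cells, 4 of 286 and 3 of 181 did. The intervals of both types overlapped those of T cell-like cells in each library. Without thinning, 87.9% and 94.8% of goblet-like cells (median depths 14382 and 18042 UMIs), 0.87% and 1.74% of T cell-like cells (2828 and 3571 UMIs) and 2.44% and 2.53% of enterocyte-like cells (7986 and 15752 UMIs) had an Ern2 UMI.

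Ern1, which encodes the IRE1 of nearly all cell types, was spread differently. Its level was highest in enteroendocrine-like cells (25.1 CPM in WT and 25.8 in MG53-TG) and lowest in tuft-like cells (5.36 and 4.72). Goblet-like cells had 12.1 and 17.4 CPM, enterocyte-like cells 9.33 and 11.7 and stem-like cells 7.5 and 8.35. Apart from enteroendocrine-like cells, the WT levels of types next to each other in this order had overlapping counting intervals.

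Xbp1 was highest in goblet-like cells, at 250.3 CPM in WT and 244 in MG53-TG, followed by secretory progenitor-like (203 and 210.4) and enteroendocrine-like cells (178 and 156). Enterocyte-like cells had 123 CPM in both libraries, and stem-like and tuft-like cells 65.3 to 75.1 CPM. The level in goblet-like cells was thus about the same in both libraries.

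Atf6 was concentrated in 1 kind of enteroendocrine cell. Cluster 17 with Tph1 and Chga, markers of serotonin-producing enterochromaffin cells, had 330.0 CPM in WT (251 UMIs) and 268 in MG53-TG (149 UMIs), whereas cluster 15 with the peptide hormone genes Ghrl, Gip and Cck had 55.7 and 52.7 CPM. The log2 ratio between these clusters was 2.57 (2.20 to 2.94) in WT and 2.34 in MG53-TG. Of the 24 ER genes with enough UMIs, Atf6 was the 1 gene at least 2-fold higher in the Tph1 cluster in both libraries, where 5.31% of all genes were, and 0 were at least 2-fold higher in the peptide cluster, where 2.73% of all genes were. The median over the 24 genes lay below 0, at -0.27 and -0.31, beside 0.08 and 0.06 for all genes. Goblet-like cells had 43.4 and 57.8 CPM of Atf6 and stem-like cells 18.6 and 21.1.

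Tuft-like cells had little Ern2, Pdia5 (1.91 and 2.49 CPM) or Fkbp11 (1.15 and 2.24 CPM) but much Hsp90b1. Tuft cluster 13 had 1139 CPM of Hsp90b1 in WT and 1337 in MG53-TG, the highest of the epithelial clusters in both libraries, while its Hspa5 was at 417 and 542 CPM. The other tuft cluster had 678 and 560.1 CPM of Hsp90b1.

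Derl3, a component of ER-associated degradation of professional secretory cells, was nearly absent from the epithelium. It had 38 UMIs in the WT and 51 in the MG53-TG secretory class, and 0 and 2 UMIs in the absorptive class, where 0 allows at most 0.0985 CPM at the upper Poisson bound. The B and plasma cell-like cluster, of 20 WT and 12 MG53-TG cells, had 50.1 and 286 CPM. The same cluster had 559.9 CPM of Hsp90b1 in WT and 2064 in MG53-TG, the latter from 202 UMIs in 12 cells.

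Promoter sequences were searched for the elements that link the response to its genes. The ER stress response element (ERSE) has the letters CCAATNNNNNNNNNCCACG and is bound by NF-Y at the CCAAT box and by ATF6 or spliced XBP1 at CCACG, ERSE-II has the letters ATTGGNCCACG, and the unfolded protein response element (UPRE) was searched as TGACGTGG. Both strands were searched in RefSeq promoters of build GRCm38.p6, from 250 bases before to 50 after a gene's start, in which 28 of the 35 genes had an entry. Ern2, Atf6, Creb3l1, Manf, Hyou1, Derl1 and Sec61a1 had none.

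ERSE was found in 9 of the 28 genes, beside 0.119% of all 32851 promoters and 0.137% of the 27025 genes in the table. The genes were listed as genes of this response and the elements as its binding sites. The excess over all genes is therefore description and no independent result. These 9 were Hspa5, Hsp90b1, Dnajc3, Creld2, Pdia6, Calr, Canx, Syvn1 and Derl3, and together they made up 9 of the 37 genes with an exact ERSE. ERSE-II was found in Dnajb11 and Herpud1, beside 0.0365% of all promoters, and UPRE in 0 of the 28 genes, beside 0.676%. The matches are shown here, each read 5′ to 3′ on the strand of the match, with the fixed letters in capitals and the free spacer in lower case.
Hspa5: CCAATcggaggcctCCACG
Hsp90b1, farther element: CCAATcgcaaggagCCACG
Hsp90b1, nearer element: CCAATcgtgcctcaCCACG
Dnajc3: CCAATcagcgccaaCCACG
Creld2: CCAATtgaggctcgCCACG
Pdia6: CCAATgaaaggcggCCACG
Calr: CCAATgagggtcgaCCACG
Canx: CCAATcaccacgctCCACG
Syvn1: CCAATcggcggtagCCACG
Derl3: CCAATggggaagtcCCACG
Dnajb11: ATTGGcCCACG
Herpud1: ATTGGgCCACG
The spacers differed from gene to gene while the outer boxes were fixed by the search.

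**Figure D3:**
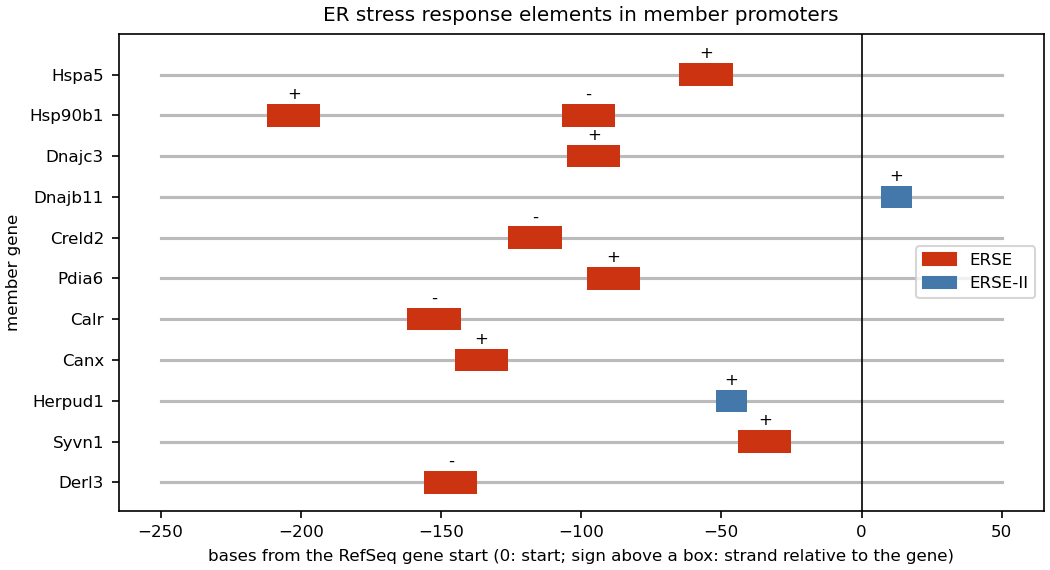
Position of each exact ERSE (red) and ERSE-II (blue) in bases from the RefSeq start of 11 genes (rows), with the searched window as a grey line and the strand relative to the gene above each box. All but the element of Dnajb11 lie before the start, between 25 and 193 bases away from it, and Hsp90b1 has 2.

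Hspa5 and Hsp90b1 are printed with the 250 bases before their starts, since they are the main chaperones of the set and Hsp90b1 was the 1 gene with 2 matches. The first lies at chr2:34771840-34772089 on the plus strand and the second at chr10:86705445-86705694 on the minus strand (GRCm38.p6). Both are given 5′ to 3′ on the strand of the gene, and capitals mark the fixed letters of ERSE on either strand.
Hspa5 upstream: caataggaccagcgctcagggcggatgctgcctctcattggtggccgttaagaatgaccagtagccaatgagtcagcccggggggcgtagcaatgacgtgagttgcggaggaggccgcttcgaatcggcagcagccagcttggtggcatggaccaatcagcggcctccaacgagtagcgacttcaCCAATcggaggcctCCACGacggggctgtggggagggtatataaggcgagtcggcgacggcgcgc
Hsp90b1 upstream: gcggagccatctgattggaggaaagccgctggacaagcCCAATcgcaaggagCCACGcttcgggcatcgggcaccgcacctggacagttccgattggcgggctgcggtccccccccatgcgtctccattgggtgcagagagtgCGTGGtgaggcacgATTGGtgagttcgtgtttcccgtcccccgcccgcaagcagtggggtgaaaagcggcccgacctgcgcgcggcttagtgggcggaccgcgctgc
The match ends 46 bases before the start in Hspa5, and in Hsp90b1 the matches end 193 and 88 bases before it. The GENCODE annotation of the same build starts both genes farther upstream than RefSeq does, Hspa5 at 34771970 and Hsp90b1 at 86705509. By that annotation the Hspa5 match lies inside the gene, while both Hsp90b1 matches still lie before the start. Of the 5 genes with the large secretory ratios, Creb3l4, Fkbp11 and Pdia5 had an entry and none of the 3 matched any of the searched elements, which says only that these exact letters are not in this window. The 10 genes with ERSE or ERSE-II that were compared had a median secretory over absorptive log2 ratio of 0.51 in WT and 0.74 in MG53-TG, the 17 with an entry and neither element 0.60 and 0.89.

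Between the genotypes, the ER chaperones were higher in MG53-TG in goblet-like cells. Each of the 9 genes grouped as chaperones and their cofactors (Hspa5, Hsp90b1, Hyou1, Dnajb9, Dnajc3, Dnajb11, Sdf2l1, Manf and Creld2) was higher, with a median log2 ratio of MG53-TG over WT of 0.43 and a range of 0.25 to 0.59, beside 0.05 for the 10187 genes compared in these cells. Over all 34 ER genes with at least 100 UMIs the median was 0.21, and 31 lay above 0, as did 62.4% of all genes. At least 1.5-fold higher was 1 of the 34 (Hyou1), against 1.11% of all genes, and 0 were at least 1.5-fold lower, against 1.26%. Hyou1 lay just past this fold and fell short of it under several alternatives, with log2 ratios from 0.54 to 0.70 over all of them.

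Hyou1, the ER Hsp110 that exchanges nucleotides on BiP, was at 48.8 CPM in WT and 73.4 in MG53-TG goblet-like cells, a log2 ratio of 0.59 (0.48 to 0.69). Creld2, an ER protein with EGF-like domains that was counted in this group by the list, was at 32.4 and 47.5 CPM (0.55, 0.42 to 0.68). Hspa5 was at 669 and 929.6 CPM (0.47, 0.44 to 0.50) and Hsp90b1 at 584 and 789 CPM (0.43, 0.40 to 0.46). Dnajb9, a cochaperone of BiP, was at 41.6 and 58.5 CPM (0.49, 0.38 to 0.61). The intervals of these 5 genes lay above the all-gene median, but they hold no spread between mice.

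The sensors did not move as a block. In goblet-like cells Xbp1 had a log2 ratio of -0.04 (-0.09 to 0.01), Ern2 0.12 (0.07 to 0.17) and Eif2ak3 -0.09, whereas Ern1 (0.53, 0.31 to 0.75) and Atf6 (0.41, 0.30 to 0.53) were higher in MG53-TG. Creb3l4, Creb3l1, Pdia5 and Fkbp11, which had large secretory ratios, had 0.04 to 0.12. The 8 disulfide isomerases, lectins and the prolyl isomerase had a median of 0.17, the 7 degradation genes that were compared 0.18 and the 3 translocon genes (Sec61a1, Sec61b and Ssr1) 0.14. The 10 compared genes with ERSE or ERSE-II had a median of 0.24, the 17 with an entry and neither element 0.14, and the 7 without an entry 0.24.

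**Figure D4:**
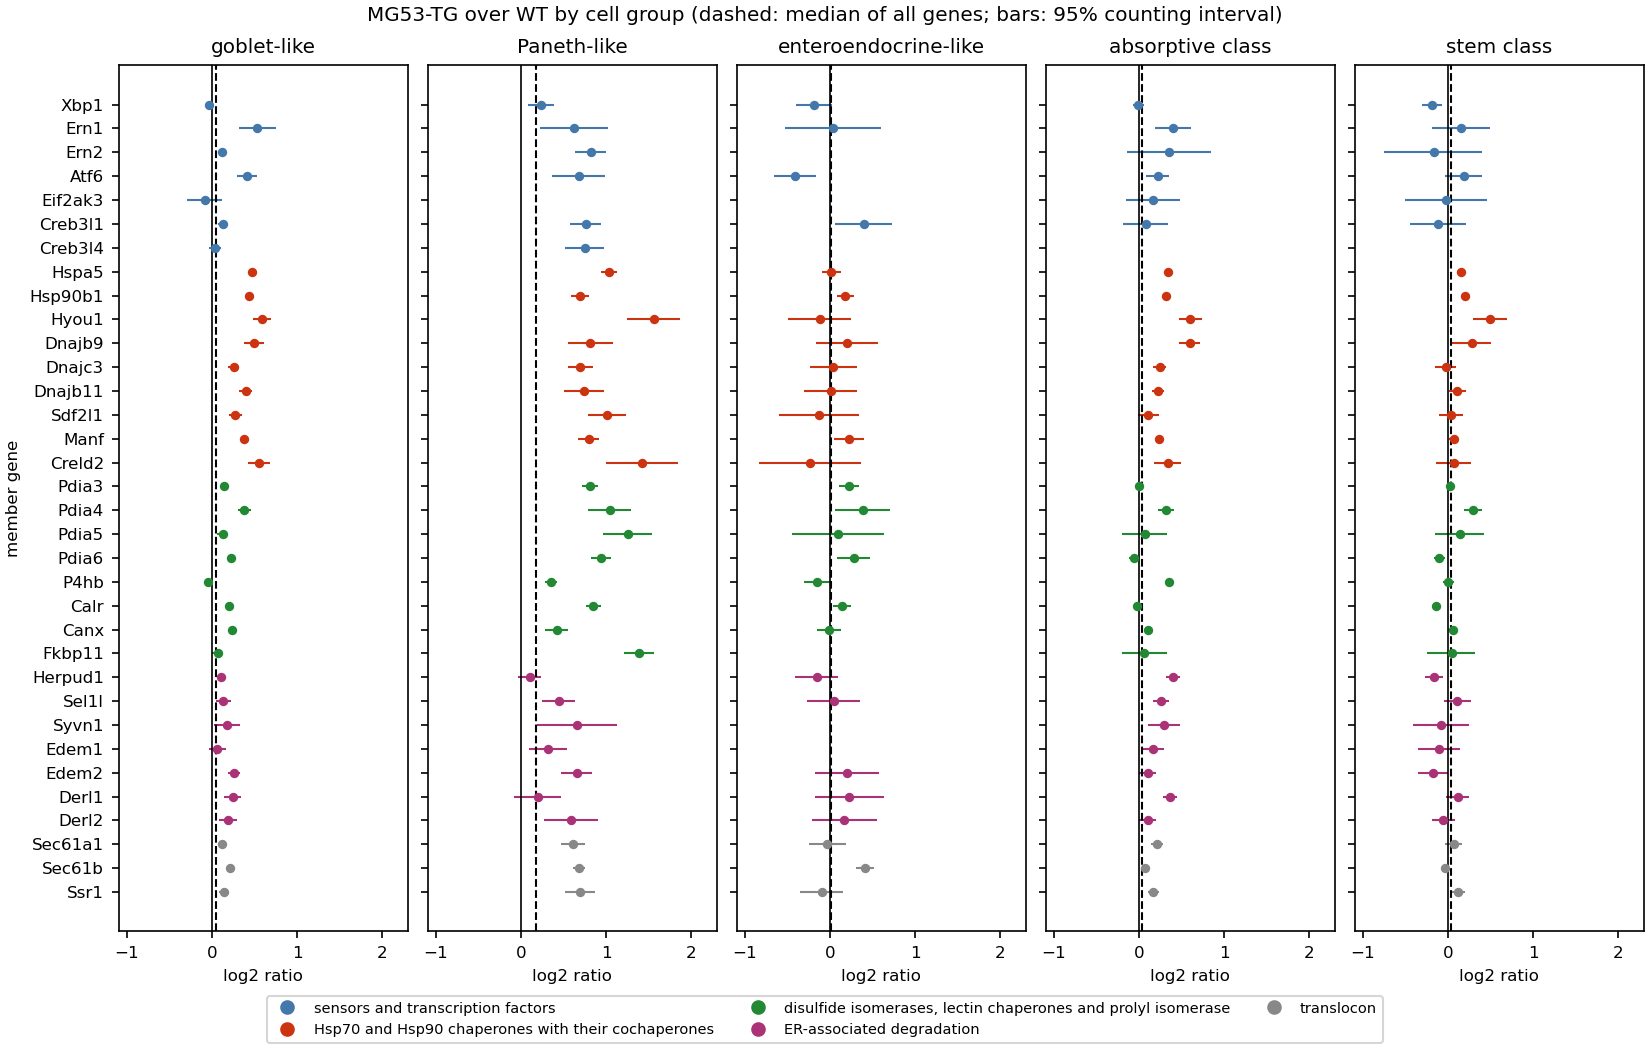
Log2 ratio of CPM in MG53-TG over WT (horizontal axis) for 34 genes (rows, coloured by role) in goblet-like, Paneth-like and enteroendocrine-like cells and in the absorptive and stem-like classes, with bars for the 95% counting interval and a dashed line at the median of all genes. In goblet-like cells all 9 red chaperones lie between 0.25 and 0.59, right of the dashed line, and Xbp1 at -0.04; genes under 100 UMIs have no point.

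Of these chaperones, Hspa5 and Hyou1 were compared within single goblet clusters, since the make-up of goblet-like cells differed between the libraries. The other chaperones are not given by cluster here. Hspa5 was at 725 and 987 CPM in the main cluster 0 (Clca1, Zg16), at 723 and 979 CPM in cluster 1 (Retnlb, Spink4), and at 357 and 378 CPM in cluster 9 (Ido1, Cldn4). Hyou1 was at 49.2 and 75.04 CPM, 58.2 and 83.3 CPM, and 19.3 and 25.03 CPM in the same clusters. The median over ER genes was 0.14 in cluster 0, 0.18 in cluster 1 and 0.06 in cluster 9, beside all-gene medians of 0.04, 0.06 and 0.14. In cluster 9 the median of the ER genes was thus below that of all genes. The small goblet cluster 20 had enterocyte genes such as Slc5a12 and Pck1 among its leading genes, and a median of 0.23 beside 0.01.

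In the secretory class as a whole the ratios were larger, but so were those of other genes. The median over 34 ER genes was 0.41 and all 34 lay above 0, beside a median of 0.21 and 83.8% above 0 for all 11777 genes. At least 1.5-fold higher were 5 of 34, against 3.05% of all genes, and 0 at least 1.5-fold lower, against 2.22%. The 5 were Hyou1 (37.3 CPM in WT and 64.1 in MG53-TG, log2 0.78), Creld2 (25.8 and 43.1 CPM, 0.74), Hspa5 (0.65), Pdia4 (74.9 and 115 CPM, 0.62) and Dnajb9 (36.2 and 54.4 CPM, 0.59). Paneth-like cells, whose 20 top genes dominate their RNA, gave 29% of the secretory UMIs in WT and 12.7% in MG53-TG. Without them the median over the ER genes was 0.17 and that of all genes 0.02, and none of the 34 was 1.5-fold higher.

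Paneth-like cells themselves had the largest median of all types, 0.70 over 33 ER genes (range 0.10 to 1.56) beside 0.17 for all genes. All 33 lay above 0, but the share of all genes above 0 in these cells was not computed. Hspa5 was at 149.8 CPM in the 303 WT cells and 307 in the 173 MG53-TG cells (1.03, 0.94 to 1.13), and Hyou1 at 11.3 and 33.3 CPM (1.56, 1.24 to 1.87). Cells within this cluster varied widely in MG53-TG, with the ER genes taking 0.124% of UMIs at the tenth percentile of cells, 0.375% at the median and 1.3% at the 90th, against 0.116%, 0.204% and 0.817% in WT. The lower quartiles were close (0.148% in WT and 0.163% in MG53-TG) and the upper quartiles far apart (0.361% and 0.854%). With the 35 genes among the clustering genes, Paneth-like cells formed a cluster of 235 WT and 90 MG53-TG cells led by defensin genes and a shallower cluster of 65 and 84 cells led by Rnase1, in different proportions in the libraries. The 10 Paneth markers took 56.4% of UMIs in WT and 54.2% in MG53-TG, the 10 goblet markers 2.34% and 3.05%, and median depth was 39977 and 27123 UMIs. The part of these differences in the ER gene values was not tested.

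The medians were smaller in the other secretory types. The median over 28 ER genes in enteroendocrine-like cells was 0.04 beside 0.01 for all genes, and Hspa5 was at 633 and 639 CPM (0.02, -0.09 to 0.12). In tuft-like cells the median over 27 genes was 0.10 beside 0.06, made up of 0.19 beside 0.05 in cluster 13 and -0.12 beside 0.03 in cluster 18. In secretory progenitor-like cells it was 0.15 over 34 genes beside 0.08. Within their clusters it was higher, 0.25 beside 0.03 in cluster 11 and 0.16 beside 0.02 in cluster 19.

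In the absorptive class the ER genes were also higher in MG53-TG, with a median of 0.22 over 33 genes beside 0.03 for all 10390 genes, and 29 of 33 above 0 where 55.1% of all genes were. At least 1.5-fold higher were 2 of 33, against 2.59% of all genes, and 0 were at least 1.5-fold lower, against 2.89%. Dnajb9 was at 26.7 CPM in WT and 40.4 in MG53-TG (0.59, 0.47 to 0.72) and Hyou1 at 23.1 and 35.1 CPM (0.60, 0.47 to 0.74). Both lay just past 1.5-fold, and the count of genes past it ran from 0 to 4 over the alternatives. Hspa5 was 0.34 (0.31 to 0.37), Hsp90b1 0.31 (0.28 to 0.34), Herpud1 0.40 and P4hb 0.35, while Xbp1 (-0.01), Pdia3 (0.00) and Calr (-0.02) were level. By cluster, 5 of the 6 absorptive clusters had medians of 0.21 to 0.42, whereas enterocyte cluster 12 had -0.20 beside -0.03, with 3 of 13 genes above 0. The share of all genes above 0 was not computed for single clusters. Keeping cells with up to 50% mitochondrial UMIs brought the absorptive median to 0.045. Absorptive cells had median mitochondrial shares of 6.41% in WT and 7.55% in MG53-TG under the main limit of 25%.

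In the stem-like class the ER genes followed the other genes. Their median was 0.04 over 33 genes beside 0.03, 20 of 33 lay above 0 where 57.5% of all genes did, and 0 passed 1.5-fold in either direction, against 1.29% higher and 1.07% lower. Hyou1 was the highest, at 17.9 and 25.3 CPM (0.49, 0.29 to 0.70), and Xbp1 the lowest, at 74.4 and 65.3 CPM (-0.19, -0.30 to -0.07). Hspa5 was 0.15 (0.11 to 0.20) and Hsp90b1 0.20 (0.16 to 0.24). Leaving out every cell with a score above 0 for S or G2/M genes, a broad call that kept 1841 of the 2652 WT secretory cells, kept 47 WT and 13 MG53-TG stem-like cells and left 9 of the ER genes with at least 100 UMIs, whose median was -0.36 and among which Hspa5 was at -0.83.

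Within the goblet lineage, the largest contrast for the ER genes was between clusters rather than between genotypes. In cluster 9, whose leading genes include Ido1, Cldn4 and Cxcl16, 18 of the 34 genes were at least 2-fold lower than in the main cluster 0 in both libraries, against 16.7% of all 7093 genes compared, and 1 was at least 2-fold higher, against 2.96%. The median log2 ratio of cluster 9 over cluster 0 was -1.04 in WT and -1.28 in MG53-TG, beside -0.34 and -0.27 for all genes. Cluster 9 was shallow, with median depths of 6525 and 7175 UMIs against 15270 and 18906, and the part of depth in these ratios was not tested.

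Fkbp11 was at 156 CPM in the main cluster and 10.8 in cluster 9 in WT and at 148 and 6.9 CPM in MG53-TG, Pdia5 at 146 and 17 CPM and at 153 and 22 CPM, and Sec61b, a subunit of the translocon, at 1186 and 271 CPM and at 1307 and 246 CPM. The sensors and transcription factors were mixed. Creb3l4 (-1.27 and -1.24), Creb3l1 (-0.86 and -0.74) and Atf6 (-0.58 and -0.54) were lower in cluster 9 too. Xbp1 was at 245 and 268 CPM in WT and at 246 and 256 in MG53-TG, and Ern2 at 224 and 177 and at 240.2 and 243 CPM. Eif2ak3 (PERK, which slows translation under ER stress) was the 1 gene at least 2-fold higher in cluster 9, at 29 against 14.2 CPM in WT (75 and 135 UMIs) and 34.1 against 13.7 in MG53-TG (79 and 251 UMIs). Ern2 was thus lower in cluster 9 in WT (-0.34, -0.49 to -0.19) and level in MG53-TG. Among the 9 chaperones the ratio ran from -2.09 to -0.13 in WT and from -3.03 to -0.53 in MG53-TG, with Dnajb9 nearest to 0.

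**Figure D5:**
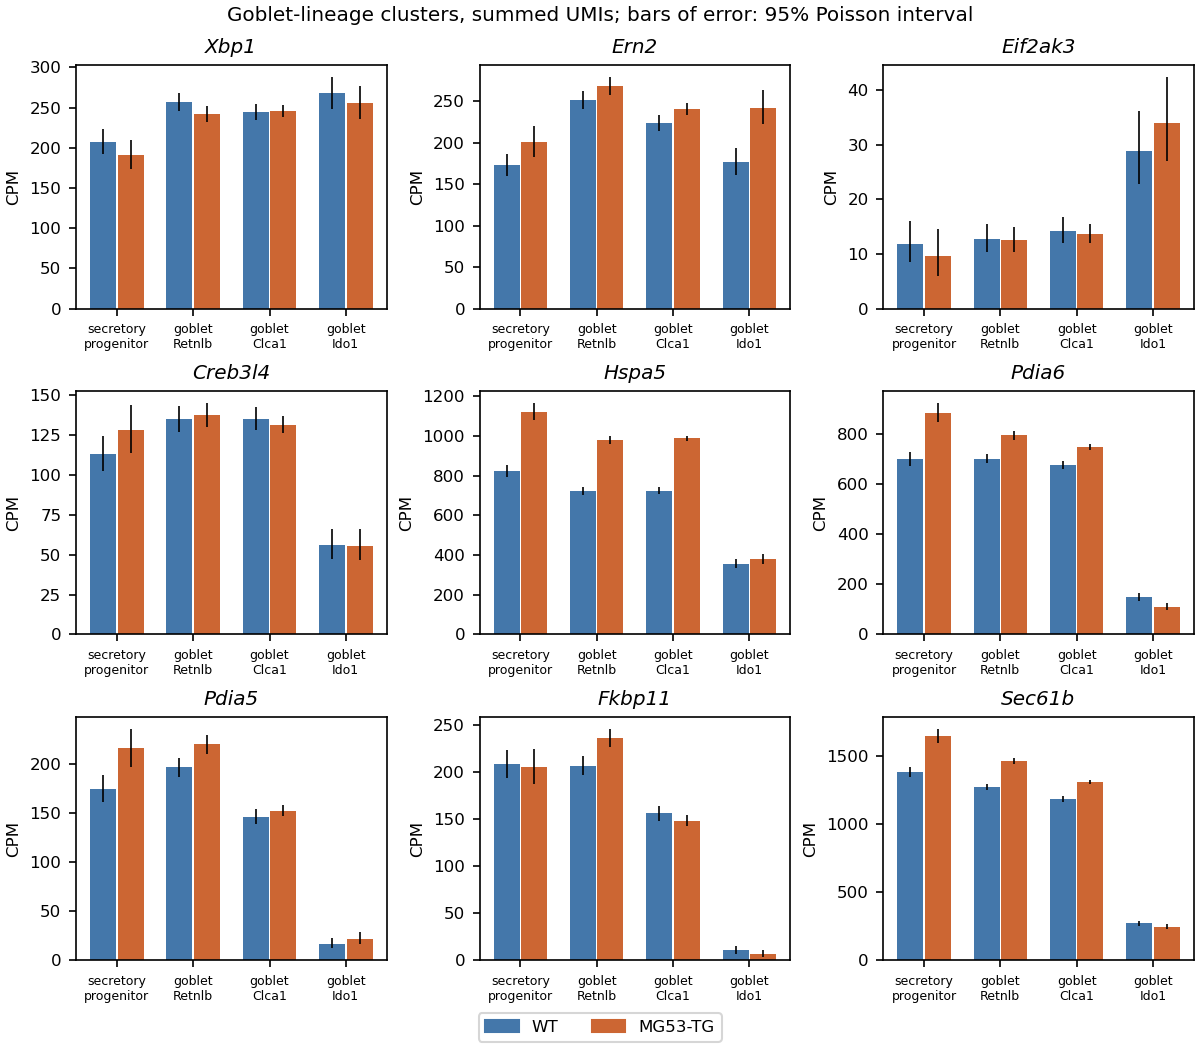
CPM of 9 genes (panels, axes from 0) in the secretory progenitor-like cluster 11 and the goblet-like clusters 1 (Retnlb), 0 (Clca1) and 9 (Ido1), with WT in blue, MG53-TG in orange and 95% Poisson intervals. Hspa5, Pdia6, Pdia5, Fkbp11, Sec61b and Creb3l4 are lowest in the Ido1 cluster, Xbp1 stays between 242 and 268 CPM in the goblet clusters and Eif2ak3 is highest in the Ido1 cluster.

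In the secretory progenitor-like cluster 11 (Dll1, Spdef) the ER genes differed from the main goblet cluster about as much as all genes did. Of the 34 genes compared, 0 were at least 2-fold higher, against 2.79% of all genes, and 0 were at least 2-fold lower, against 1.16%. The median was 0.14 in WT and 0.19 in MG53-TG, beside 0.13 and 0.09 for all genes. Hsp90b1 (0.48 and 0.45), Creld2 (0.47 and 0.42) and Fkbp11 (0.42 and 0.47) were the highest in WT, and Pdia5 (0.26 and 0.50) was the highest in MG53-TG. Xbp1 (-0.24 and -0.36), Ern2 (-0.38 and -0.26) and Sel1l, a partner of the ubiquitin ligase Syvn1 (-0.27 and -0.48), lay below it.

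Other genes of the pathway were examined as 6 lists, with the same folds as above. The share of all genes at least 2-fold higher in secretory cells was 14.0%, so that 2 of 16 or 1 of 13 genes of a list are near it, and 13.6% were at least 2-fold higher in absorptive cells. Of 18 further folding and disulfide enzymes compared, 8 were at least 2-fold higher in secretory than in absorptive cells in both libraries, with medians of 0.66 in WT and 0.89 in MG53-TG. Agr2, the disulfide isomerase that goblet cells need for mucin folding, was at 7180 CPM in secretory and 55.1 in absorptive cells of WT. Of the 16 genes of glycosylation and the lectin cycle and the 16 of translocation and signal peptide removal, 2 each passed (Tusc3 and Mogs, and Sec11c and Tram1), with medians of 0.41 and 0.58 and of 0.42 and 0.60 in WT and MG53-TG. Of 13 further degradation genes Edem3 was higher and March6 lower. Of 13 PERK arm and stress-induced regulators Ppp1r15a and Nupr1 were higher and Trib3, Cebpb and Nfe2l2 lower. Of 18 genes of ER-to-Golgi transport and sensor processing Kdelr3, Mia3 and Bhlha15 were higher and Sar1b, Mia2 and Creb3l3 lower.

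Between the genotypes, the PERK arm and stress-induced regulators had the highest count past 1.5-fold of the 6 lists in secretory and absorptive cells. In the absorptive class 5 of the 13 genes of this list (Trib3, Chac1, Ddit3, Sesn2 and Nupr1) were at least 1.5-fold higher in MG53-TG, with a median of 0.51. In the secretory class it was 3 of 13 (Chac1, Trib3 and Ddit3), with a median of 0.27, below that of 4 of the other lists. Chac1, a glutathione-degrading enzyme under ATF4, was at 3.58 CPM in WT and 7.98 in MG53-TG secretory cells (1.16, 0.89 to 1.43) and at 6.27 and 14.3 CPM in absorptive cells. Trib3, a pseudokinase of the same list, was at 4.03 and 13.7 CPM in absorptive cells. Which sensor acts on these genes was not tested. Eif2ak3, the gene of PERK, had 0.22 (0.05 to 0.40) in the secretory and 0.16 (-0.15 to 0.48) in the absorptive class. All genes reached 1.5-fold in 2.59% of cases in the absorptive, 3.05% in the secretory and 1.29% in the stem-like class. In the stem-like class 1 of the 9 regulators compared was at least 1.5-fold higher, as was 1 of 16 further folding enzymes. Of the other 5 lists, 2 of 19 further folding enzymes (Agr2, 7180 and 10838 CPM, and Agr3) and 1 of 16 translocation genes (Srp54a) were at least 1.5-fold higher in the secretory class, and their secretory medians ran from 0.23 to 0.34. In the absorptive class Agr2 was higher and Qsox1, a sulfhydryl oxidase, lower by that fold, and the medians ran from 0.08 to 0.19. The absorptive levels of Agr2 (55.1 and 124.8 CPM) and Nupr1 (2.78 and 4.69 CPM) were far below their secretory levels (261 and 260.3 CPM for Nupr1), and the part of free RNA in them was not tested.

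Several of the ER genes share their locus with another counted gene. In the GENCODE annotation of build GRCm38 (mm10), Hspa5 lies on chromosome 2 from 34771970 to 34777547, Xbp1 on chromosome 11 from 5520659 to 5525893, Ern2 on chromosome 7 from 122169893 to 122186207, Atf6 on chromosome 1 from 170704674 to 170867771 and Hyou1 on chromosome 9 from 44379490 to 44392369, and none of these 5 overlapped another gene of the tables. Hsp90b1, Pdia3, Pdia6, Dnajb11, Manf, Herpud1, Syvn1, Derl2 and Sec61a1 did, mostly with a gene on the other strand. Whether the counting used strand is not given in the sources used here, so UMIs of these 9 genes may include some of their neighbours.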

How the data were processed

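Epithelial cells of 1 WT and 1 MG53-TG group of mice were profiled with the 10x Genomics 3′ kit. The authors deposited raw UMI counts for each barcode. The files name Cell Ranger 4 in the WT library and Cell Ranger 6.0.1 in the MG53-TG library, the build is mm10, and the submitters' processing notes also name Seurat. The WT table held all barcodes and the MG53-TG table only those above a lower limit, so program version, barcode filter, library and genotype cannot be told apart. Whether counting used strand, and the annotation release, are not given in the sources used here. The study gives n = 5 for each group in the single-cell experiment, and with 1 library per group the animals cannot be told apart.

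Barcodes with at least 1354 UMIs, 200 genes and at most 25% mitochondrial UMIs were kept. Doublets were scored with scrublet and removed at 0.8% per 1000 cells, 438 WT and 212 MG53-TG cells. Cells were clustered (scanpy 1.11.5, leidenalg 0.10.2; 2000 variable genes, 30 components, 15 neighbours, resolution 1) without the 35 genes and Trim72, and clusters were named from marker lists. UMIs were summed per cell group and library and divided by the group's total to give CPM. Intervals are exact Poisson for levels and exact conditional binomial for ratios, at 95%, and cover counting error only. Ratios needed 100 UMIs for the gene in the groups compared, and folds of 1.5 between libraries and 2 between classes were used as descriptions. The ratio code was tested on simulated data. Share of cells with a UMI was taken after thinning each cell to 1354 UMIs.

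The 35 genes, the pathway lists and the comparisons were chosen with earlier results of these data known. Genes were named by role and by size of ratio within the list, under a rule set with the design. Single clusters, and the genes named in the other pathway lists, were picked after their values were seen. Alternatives covered doublets, cell filters, clustering, gating, scaling, weighting, gene minimum, folds, pseudocount and cycling cells, and 2 more were chosen after seeing the data.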

Additional observations from a re-analysis of the deposited data

Results flagged for a closer look

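Atf6 had opposite directions between the libraries in different secretory cell types, with counting intervals that left out 0 each way. The log2 ratio of MG53-TG over WT was -0.41 (-0.66 to -0.17) in enteroendocrine-like cells, from 335 WT and 228 MG53-TG UMIs. It was 0.41 in goblet-like, 0.68 in Paneth-like, 0.50 in tuft-like and 0.46 in secretory progenitor-like cells. The difference between cell types was not tested, since each genotype is 1 library. The 2 enteroendocrine clusters differ in Atf6 level, and the cluster with Tph1 and the higher level held 126 of the 286 WT and 64 of the 181 MG53-TG enteroendocrine-like cells. Within clusters Atf6 was at 330.0 and 268 CPM in the Tph1 cluster and at 55.7 and 52.7 CPM in the peptide hormone cluster.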

How the results depend on the processing

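No paired analysis was possible because each genotype was 1 library and the labels give no replicate numbers. Over 17 alternatives, no value past its fold that was recomputed changed direction (Paneth-like values, comparisons of single clusters and the other pathway lists were not recomputed), the stem-like median changed sign under 1 of them, and the following summaries moved by more than their interval or by over 1.5 times; the cause was not tested. The secretory over absorptive median in WT (0.58) became 0.72 with a mitochondrial limit of 50%, 0.82 as the mean of single-cell CPM, 0.79 with median of ratios scaling, 0.89 with totals without mitochondrial and the 20 most abundant genes, and 0.93 without Paneth-like cells, the last chosen after seeing the data. In MG53-TG (0.85) it became 1.05 with the 50% limit, 0.49 with types weighted equally and 0.98 with those totals. With stricter folds of 2 and 3, 5 genes in place of 9 were higher in the secretory class, and at the main fold the count ran from 7, with types weighted equally, to 11. Creb3l4 in WT ran from 3.83 to 6.65. The secretory median of MG53-TG over WT (0.41) became 0.24 as the mean of single-cell CPM, 0.20 with types weighted equally, 0.19 with median of ratios scaling, 0.23 with those totals, 0.34 without cells scored as cycling (S or G2/M score above 0) and 0.17 without Paneth-like cells. Its count of genes past 1.5-fold (5) became 0, 0, 0, 1, 3 and 0 in the same order, and 0 with the stricter folds.

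The absorptive median (0.22) became 0.045 with the 50% limit. Its higher count (2) became 1 with that limit, 1 as the mean of single-cell CPM, 1 with types weighted equally, 4 with no gene minimum, and 0 with median of ratios scaling, the stricter folds or a pseudocount of 5 CPM, and its lower count (0) became 1 with the 50% limit and 1 as the mean of single-cell CPM. The stem-like median became -0.36 and its lower count 4 without cycling cells, over the 9 genes that still had 100 UMIs in place of 33. The goblet median (0.21) became 0.17 with a minimum of 500 UMIs, 0.25 with each cell gated by its markers, 0.16 with median of ratios scaling and 0.16 with those totals. Its higher count (1, Hyou1) became 2 with doublets kept, with the 50% limit or without cycling cells and 3 with gating. It became 0 with the 500 UMI minimum, the 35 genes among the clustering genes, each library clustered on its own, median of ratios scaling, those totals, the stricter folds or the pseudocount. The median over all epithelial cells (0.44) became 0.35 with the 50% limit, 0.37 as the mean of single-cell CPM, 0.19 with types weighted equally, 0.35 with median of ratios scaling and 0.38 without Paneth-like cells. In goblet-like cells Hyou1 ran from 0.54 to 0.70, Hspa5 from 0.42 to 0.49, Hsp90b1 from 0.34 to 0.46 and Xbp1 from -0.09 to 0.01. Values of single genes moved more between classes: the WT secretory over absorptive ratio ran from 0.09 to 0.51 for Hspa5 and from -0.11 to 0.44 for Hsp90b1. In stem-like cells Hspa5 (0.15) became -0.83 and Hsp90b1 (0.20) became -0.33 without cycling cells. Leaving out the goblet cluster with enterocyte genes, also chosen after seeing the data, moved none of these summaries.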
